A study of Mus musculus with 163 samples.

Results

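Steroid hormones are made from cholesterol by a short chain of enzymes, and 7 genes of that chain were followed in single mouse oocytes: Star, Cyp11a1, Fdx1, Hsd3b1, Cyp17a1, Hsd17b1 and Cyp19a1. They are 7 of the 21950 genes in the deposited count table. The group was chosen by measured values, since earlier results of these data had shown higher read counts of some of them in FGOs grown from 6 dpp follicles than in other fully grown oocytes, so the levels below are a description and carry no test. Every library came from 1 oocyte and was made with Smart-seq2, which copies messenger RNA over its whole length, and the oocytes fell into 7 groups.

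Growing oocytes (GROs) comprised 23 derived from induced pluripotent stem cells (GRO iPSC), 24 derived from gonads of E12.5 embryos (GRO gonad) and 24 grown in vivo (GRO in vivo). Fully grown oocytes (FGOs) comprised 24 derived from the stem cells (FGO iPSC), 24 from E12.5 gonads (FGO gonad), 24 from follicles isolated at 6 dpp (days post partum) and grown in culture (FGO 6 dpp), and 20 grown in vivo (FGO in vivo). All stem cell-derived oocytes came from 1 line, BVSC-iPSC (reporters Blimp1-Venus and Stella-ECFP), and they developed among somatic cells of E12.5 female gonads. The medium for the differentiation of oocytes contained an estrogen receptor antagonist for part of the culture, and the medium for the growth of follicles contained follicle-stimulating hormone, which stimulates granulosa cells. The ages of the mice that gave in vivo oocytes are not given in the labels. Somatic cells of the follicle were taken off every oocyte with needles, an enzyme mix and pipetting. The zona pellucida was then dissolved in acid Tyrode's solution, and each oocyte was washed before lysis. The comparison groups follow the culture steps of the study: in vitro differentiation of primordial germ cell-like cells (IVP; iPSC against gonad), in vitro differentiation of oocytes (IVD; gonad against in vivo or 6 dpp) and in vitro growth (IVG; 6 dpp against in vivo), each named with the stage at which it was read, as in IVD@FGO.

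In the ovary this chain is divided between cell types of the follicle. Theca cells take up cholesterol and make androgens, granulosa cells around the oocyte turn androgens into estrogens under follicle-stimulating hormone, and luteal cells make progesterone after ovulation. Star moves cholesterol to the inner mitochondrial membrane. There Cyp11a1 cuts its side chain to give pregnenolone with electrons passed on by the ferredoxin Fdx1, which also serves other mitochondrial enzymes. Hsd3b1 converts pregnenolone to progesterone, Cyp17a1 leads on to androgens, Hsd17b1 reduces estrone to estradiol, and Cyp19a1 (aromatase) makes estrogens from androgens. Oocytes are not counted among the classical steroid-producing cells, so transcripts of these genes in an oocyte library can come from the oocyte or from follicle cells that stayed on it, and a library by itself cannot part the sources.

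By RefSeq on GRCm38.p6, the mouse build of the deposited counts, Star (gene 20845) lies at chr8:25808474-25815982, Fdx1 (14148) at chr9:51943023-51963602, Cyp19a1 (13075) at chr9:54165937-54268164, Cyp11a1 (13070) at chr9:57998024-58027031, Hsd17b1 (15485) at chr11:101077968-101081188, Hsd3b1 (15492) at chr3:98842356-98859794 and Cyp17a1 (13074) at chr19:46667165-46673000. Reads were counted over exons. Hsd3b1 belongs to a cluster of near copies on chromosome 3, so it mattered whether its reads could be told from theirs. The first 75 bases of its coding sequence, the length of 1 read, stand below beside those of 3 neighbours, read from GENCODE transcripts on the minus strand, with capitals where a base was unlike Hsd3b1.
Hsd3b1: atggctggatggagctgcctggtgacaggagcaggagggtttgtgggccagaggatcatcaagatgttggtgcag
Hsd3b2: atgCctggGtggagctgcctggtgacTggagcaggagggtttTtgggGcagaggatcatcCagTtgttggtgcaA
Hsd3b3: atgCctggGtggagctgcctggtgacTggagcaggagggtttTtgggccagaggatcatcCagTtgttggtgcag
Hsd3b6: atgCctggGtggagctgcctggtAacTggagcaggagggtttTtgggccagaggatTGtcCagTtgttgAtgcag
These starts lie at chr3:98857890-98857964 (Hsd3b1), chr3:98716486-98716560 (Hsd3b2), chr3:98753381-98753455 (Hsd3b3) and chr3:98810972-98811046 (Hsd3b6), each within 1 exon. They held 8, 6 and 10 bases unlike Hsd3b1 in Hsd3b2, Hsd3b3 and Hsd3b6. Over the whole Hsd3b1 transcripts 1.35% of the 1851 distinct 75-base windows also occurred in a transcript of another gene, and that gene was Gm12431 in each case. Cyp11a1 shared 1.48% of its windows, all with Gm17322, a noncoding gene on the same strand that overlaps 145 exonic bases of it. No window of the other 5 members was shared. The counts below are therefore nearly free of reads that could belong to another annotated gene, and no other member had exons overlapping another gene on either strand.

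Promoters are shown for Hsd3b1, which had the highest pooled CPM ratio of 6 dpp FGOs over gonad FGOs among the members, and for Cyp19a1, which was high in FGOs of every source. Both are 300-base windows on GRCm38.p6 from RefSeq, 250 bases before to 50 after a gene start, 5′ to 3′ on the minus strand on which both genes lie. Capitals mark matches on either strand to 5 words. CAAGGTCA was searched as a word bound by Nr5a1 and Nr5a2. CAAGGCCA is a variant of it. TGACGTCA is the cyclic AMP response word. The GATA word was AGATAA. The TATA box word was TATAAA. The windows are chr3:98859745-98860044 for Hsd3b1, and chr9:54268115-54268414, chr9:54228865-54229164 and chr9:54193694-54193993 for the 3 starts of Cyp19a1 in the table.
Hsd3b1 promoter 1: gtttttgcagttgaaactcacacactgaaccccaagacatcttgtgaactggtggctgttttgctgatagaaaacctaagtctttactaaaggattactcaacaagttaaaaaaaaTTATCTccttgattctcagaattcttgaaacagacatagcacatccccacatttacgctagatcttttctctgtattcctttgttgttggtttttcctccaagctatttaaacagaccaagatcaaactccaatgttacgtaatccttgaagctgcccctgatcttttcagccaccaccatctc
Cyp19a1 promoter 1: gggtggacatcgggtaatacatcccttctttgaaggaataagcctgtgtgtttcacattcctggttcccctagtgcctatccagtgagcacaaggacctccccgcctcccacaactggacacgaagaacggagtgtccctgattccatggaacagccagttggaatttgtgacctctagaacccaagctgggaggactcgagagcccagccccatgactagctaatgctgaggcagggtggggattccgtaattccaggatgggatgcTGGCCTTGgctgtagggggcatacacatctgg
Cyp19a1 promoter 2: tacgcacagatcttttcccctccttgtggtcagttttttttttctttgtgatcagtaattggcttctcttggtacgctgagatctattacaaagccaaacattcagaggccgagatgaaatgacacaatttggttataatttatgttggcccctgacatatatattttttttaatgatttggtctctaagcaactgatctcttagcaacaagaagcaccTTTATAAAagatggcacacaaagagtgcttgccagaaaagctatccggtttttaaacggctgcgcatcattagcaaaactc
Cyp19a1 promoter 3: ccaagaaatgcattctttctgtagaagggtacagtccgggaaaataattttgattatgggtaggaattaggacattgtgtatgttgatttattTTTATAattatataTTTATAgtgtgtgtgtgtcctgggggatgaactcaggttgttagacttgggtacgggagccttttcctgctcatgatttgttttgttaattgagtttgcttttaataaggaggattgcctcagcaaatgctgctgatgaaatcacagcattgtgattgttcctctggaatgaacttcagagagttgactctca
Hsd3b1 held AGATAA once, on the opposite strand at position -134 from the start. The 3 windows of Cyp19a1 held CAAGGCCA on the opposite strand at 18 in the first listed, TATAAA on both strands at -31 and -29, overlapping, in the second, and TATAAA on the opposite strand at -157 and -143 in the last. Of 32851 windows of this length in the table, 11.2% held AGATAA, 2.40% CAAGGCCA and 13.6% TATAAA on either strand, while CAAGGTCA (1.56%) and TGACGTCA (1.79%) had no match in these 4. A match is a description of letters and names no start that oocytes used, since counts over exons cannot tell the starts of Cyp19a1 apart. Of the 7 members 4 had a window there, and those of Cyp11a1 and Fdx1 held none of the 5 words.

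Library totals ranged from 2.17 M to 13.7 M counted reads (M, 1000000 reads) with a median of 6.93 M, and levels are given as CPM, counts per 1000000 counted reads. Summed over a group, 3 reads amounted to between 0.0181 and 0.0207 CPM. Pooled CPM is the sum of a gene's reads over a group divided by the sum of its libraries, with an exact Poisson 95% interval that covers counting error only. All 12 oocyte genes of a marker list (among them Gdf9, Zp3 and Nobox) were present in every group, and their summed level lay between 22421 and 67600 CPM in single oocytes, so every library carried oocyte RNA. No difference below has a replicate check, because the labels name no animal or culture behind an oocyte and each group therefore counts as 1 sample. Oocytes of a group are counted below against the extremes of another group. The share of all genes that separate in full was computed only for gonad FGOs above gonad GROs.

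**Figure D1:**
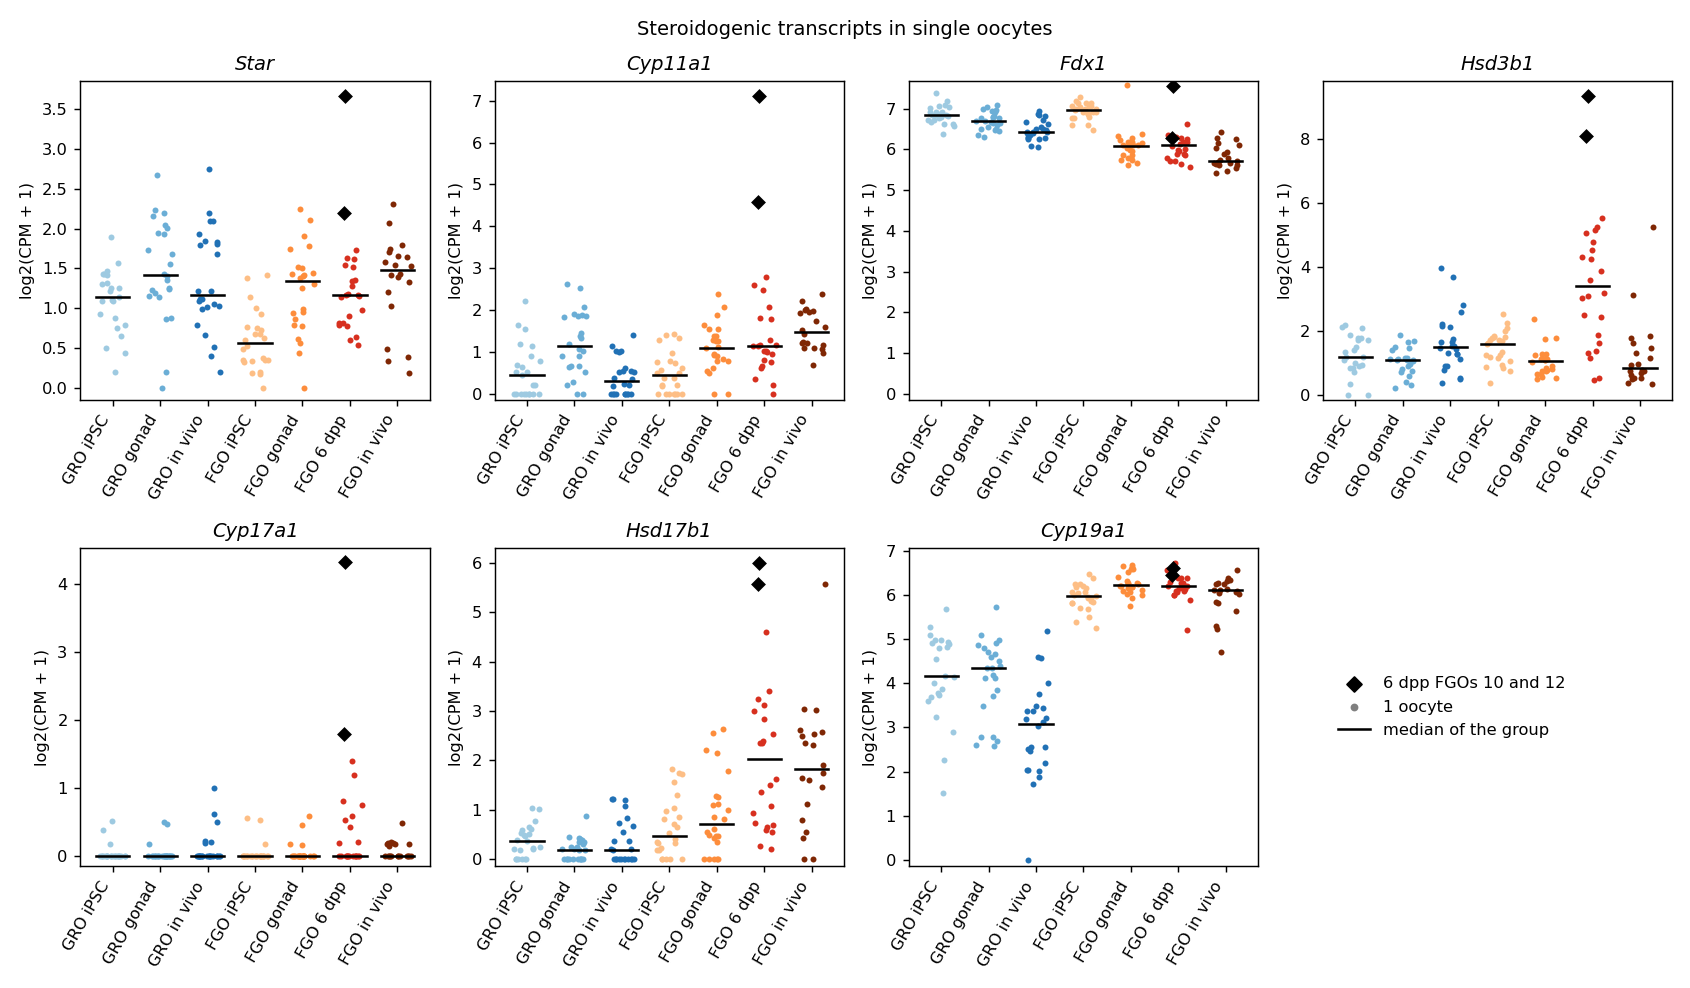
Level of each member in every oocyte, as log2(CPM + 1) on the vertical axis, by group on the horizontal axis. Each point is 1 oocyte, lines are group medians, and black diamonds are 6 dpp FGOs 10 and 12, which lie above every other oocyte for Hsd3b1, Cyp11a1, Cyp17a1 and, in the case of oocyte 12, Star.

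Only 2 members were abundant in oocytes of every group, Fdx1 and Cyp19a1. Per length, pooled Fdx1 lay between 41.9 RPKM (CPM per kilobase of counted exon) in in vivo FGOs and 89.6 RPKM in iPSC FGOs, and pooled Cyp19a1 between 3.24 RPKM in in vivo GROs and 28.3 RPKM in gonad FGOs. Star stayed between 0.129 and 0.459 RPKM, Cyp17a1 between 0.0169 and 0.517 RPKM, Cyp11a1 between 0.182 and 3.77 RPKM, Hsd17b1 between 0.106 and 5.17 RPKM, and Hsd3b1 between 0.628 and 27.1 RPKM. For Cyp17a1, Cyp11a1, Hsd17b1 and Hsd3b1 the highest of these values was that of 6 dpp FGOs. Without oocytes 10 and 12 of that group the values there were 0.123 RPKM for Cyp17a1, 0.768 RPKM for Cyp11a1, 2.50 RPKM for Hsd17b1 and 7.33 RPKM for Hsd3b1.

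**Figure D2:**
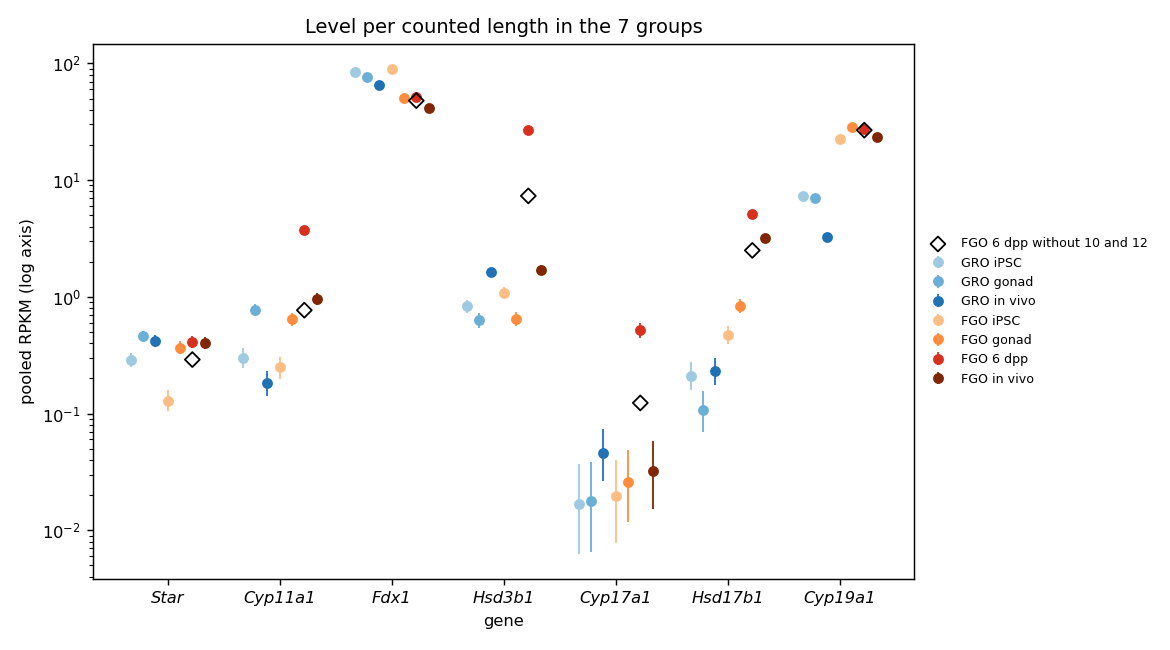
Pooled level per counted length (RPKM, log axis) of the 7 members in the 7 groups, with exact Poisson 95% intervals as bars. Open diamonds give 6 dpp FGOs without oocytes 10 and 12, which lowers Hsd3b1 from 27.1 to 7.33 RPKM and leaves Cyp19a1 at 26.8 RPKM.

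Cholesterol entry and the first enzyme were scarce. Star, the carrier, had reads in all but 3 oocytes (1 in each of gonad GROs, iPSC FGOs and gonad FGOs) but seldom many. Median levels were 1.20 CPM in iPSC GROs (range 0.143 to 2.72), 1.67 in gonad GROs (0 to 5.35) and 1.25 in in vivo GROs (0.144 to 5.73). Among FGOs the medians were 0.474 CPM in iPSC (0 to 1.67), 1.54 in gonad (0 to 3.76), 1.25 in 6 dpp (0.453 to 11.7) and 1.79 in in vivo oocytes (0.138 to 3.96). All ranges overlapped, and iPSC FGOs were the lowest group, with 4 of 24 above 1 CPM against 14 to 16 in the other FGO groups. The pooled ratio of iPSC to gonad FGOs was -0.98 on the log2 scale of CPM + 0.5 (counting interval -1.27 to -0.68). Its highest value was that of 6 dpp FGO 12, at 11.7 CPM from 76 reads.

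Cyp11a1 was low by median in every group, and near the detection limit in iPSC-derived oocytes and in vivo GROs. Medians in GROs were 0.365 CPM in iPSC (0 to 3.65), 1.19 in gonad (0 to 5.11) and 0.223 in in vivo oocytes (0 to 1.64), and reads were found in 14 of 23, 22 of 24 and 15 of 24. In FGOs the medians were 0.352 CPM in iPSC (0 to 1.68), 1.14 in gonad (0 to 4.20), 1.21 in 6 dpp (0 to 138) and 1.79 in in vivo oocytes (0.593 to 4.23). In vivo oocytes thus went from the lowest group among GROs to the highest by median among FGOs, where 11 of 20 lay above every in vivo GRO, with a growth ratio of 1.52 (1.22 to 1.81). The growth ratios of gonad-derived oocytes, -0.20 (-0.48 to 0.08), and of iPSC-derived oocytes, -0.14 (-0.46 to 0.17), had counting intervals that included 0. In 6 dpp FGOs the pooled level was 8.04 CPM, of which 81.3% of reads came from oocytes 10 (22.9 CPM) and 12 (138 CPM). The other 22 oocytes reached at most 5.91 CPM and pooled to 1.64 CPM (1.44 to 1.86), next to the 1.37 CPM of gonad (1.19 to 1.56) and the 2.05 CPM of in vivo FGOs (1.82 to 2.30), so the 4-fold difference from gonad FGOs rested on those 2 libraries.

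Fdx1 was high and even. Its lowest oocyte of all, in in vivo FGOs, had 42.2 CPM. Medians were 114, 103 and 85.2 CPM in iPSC, gonad and in vivo GROs, and 125, 67.2, 67.6 and 52.0 CPM in iPSC, gonad, 6 dpp and in vivo FGOs. Grown from gonads or in vivo, FGOs were lower than their GROs by 0.58 and 0.63 on the log2 scale, and iPSC-derived FGOs were not, at 0.08. The 24 iPSC FGOs ranged from 88.8 to 154 CPM and 23 of the 24 gonad FGOs from 47.7 to 82.6 CPM, below every iPSC FGO, with gonad FGO 19 alone at 189 CPM. That oocyte had the lowest sum of oocyte markers of its group, 23524 CPM, and the highest sum of the blood and endothelium list, 227 CPM. Pecam1 carried that list in every group, at 67.0 to 149 CPM pooled, so its sum does not mark blood cells. The ratio of iPSC to gonad FGOs was 0.81 (0.77 to 0.86), and the share of all genes with so little overlap between these groups was not computed. In 6 dpp FGO 12 Fdx1 reached 186 CPM, above all other oocytes of its group, whose highest was 97.9 CPM, while oocyte 10 was inside the range at 76.8 CPM.

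Hsd3b1, the step to progesterone, was higher by pooled level in 6 dpp FGOs than in the other FGO groups, with overlapping ranges. GROs had medians of 1.29 CPM in iPSC (0 to 3.50), 1.11 in gonad (0.158 to 2.67) and 1.81 in in vivo oocytes (0.283 to 14.6), where in vivo GROs 21 and 24 stood out at 14.6 and 11.9 CPM. These 2 oocytes also had the highest sums of 10 granulosa genes (described below) among in vivo GROs, 24.4 and 19.5 CPM, and ranked 3 and 1 of 24 for theca and stroma markers, at 5.81 and 7.81 CPM, and the part of such cells in their Hsd3b1 was not tested. FGOs had medians of 2.03 CPM in iPSC (0.289 to 4.80), 1.09 in gonad (0.408 to 4.22), 9.51 in 6 dpp (0.381 to 644) and 0.809 in in vivo oocytes (0.275 to 37.0). In the 6 dpp group oocytes 10 and 12 had 271 and 644 CPM and supplied 75.1% of the reads. The high values did not stop there. Of the other 22 oocytes, 15 lay above every gonad FGO, 13 above every iPSC FGO and 11 above all in vivo FGOs except oocyte 16, while 2 were below 1 CPM. Next highest were 6 dpp FGOs 3, 23, 14 and 7 at 44.8, 36.7, 34.6 and 32.5 CPM. Pooled over the 22, the level was 13.4 CPM (12.8 to 14.0) against 1.18 CPM (1.02 to 1.36) in gonad FGOs and 3.10 CPM (2.82 to 3.40) in in vivo FGOs. Of the in vivo reads, oocyte 16 alone held most, since the pooled level was 1.34 CPM (1.14 to 1.55) without in vivo FGOs 16 and 19.

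Cyp17a1, the androgen-forming enzyme, was all but undetected. Each group other than 6 dpp FGOs had 6 to 16 reads in all, pooled to between 0.0365 and 0.0989 CPM, and no oocyte there reached 1 CPM. The 6 dpp FGOs had 178 reads, of which 139 were in oocytes 10 (2.49 CPM) and 12 (19.0 CPM). Of their other 22 oocytes 9 had a read, with oocytes 14 and 23 at 1.63 and 1.29 CPM, and the pooled level was 0.266 CPM (0.189 to 0.364).

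Hsd17b1, the estradiol-forming enzyme, was higher in FGOs of every source. GROs had medians of 0.282, 0.143 and 0.144 CPM in iPSC, gonad and in vivo oocytes, with no value above 1.34 CPM. FGOs had 0.389 CPM in iPSC (0 to 2.57), 0.648 in gonad (0 to 5.23), 3.10 in 6 dpp (0.145 to 63.5) and 2.55 in in vivo oocytes (0 to 46.9). Of the in vivo FGOs 14 of 20 lay above every in vivo GRO, of the gonad FGOs 10 of 24 above every gonad GRO and of the iPSC FGOs 5 of 24 above every iPSC GRO. The highest oocytes were 6 dpp FGO 12 (63.5 CPM), in vivo FGO 16 (46.9), 6 dpp FGO 10 (46.7) and 6 dpp FGO 14 (23.2). Without oocytes 10 and 12 the 6 dpp group pooled to 3.89 CPM (3.58 to 4.23), and without 16 and 19 the in vivo group to 2.99 CPM (2.70 to 3.31), against 1.31 CPM in gonad and 0.740 CPM (0.615 to 0.883) in iPSC FGOs.

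Cyp19a1, aromatase, followed the stage of the oocyte. In GROs medians were 16.9 CPM in iPSC (1.86 to 50.6), 19.4 in gonad (4.96 to 51.9) and 7.41 in in vivo oocytes (0 to 35.1). In FGOs they were 61.6 CPM in iPSC (37.2 to 87.6), 73.6 in gonad (53.0 to 101), 72.7 in 6 dpp (35.7 to 105) and 67.6 in in vivo oocytes (25.1 to 93.5). Every gonad FGO lay above every gonad GRO, as did 19 of 20 in vivo FGOs over in vivo GROs and 20 of 24 iPSC FGOs over iPSC GROs. Such full separation of gonad FGOs above GROs held for 1.36% of the genes that entered that comparison. Over the FGO groups the coefficient of variation between oocytes was 0.173 to 0.263, against 0.573 to 0.902 over GRO groups. Oocytes 10 and 12 of the 6 dpp group were inside the range of their group, at 86.1 and 96.7 CPM, and leaving them out moved its pooled level from 74.7 to 73.3 CPM.

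Across the 8 comparisons a member was counted where pooled CPM + 0.5 differed at least 4-fold, and genes entered with over 1 CPM in 3 or more oocytes, counted over all groups of that stage combined (for growth, over both groups combined). Cyp17a1 entered the FGO comparisons alone, and only through 4 oocytes of the 6 dpp group, since no FGO of the other groups passed 1 CPM, so a difference from the 6 dpp group follows from its entry. During growth in vivo 2 of 6 members that entered were at least 4-fold higher in FGOs, Cyp19a1 at 2.79 (2.69 to 2.89) and Hsd17b1 at 2.68 (2.42 to 2.93), where 3.07% of 13148 genes were. Hsd17b1 fell to 1.99, just under 4-fold, once in vivo FGO 16 was left out, and to 1.57 with a pseudocount of 2. No member passed in growth of iPSC-derived oocytes, where 4.74% of genes did in either direction, or of gonad-derived oocytes, where 2.75% did. Cyp19a1 came nearest, at 1.60 (1.52 to 1.67) and 1.98 (1.91 to 2.06), and leaving out any 1 of 9 gonad-derived oocytes (FGO 6 and GROs 1, 4, 5, 9, 12, 16, 23 and 24) carried the latter to between 2.00 and 2.07. Hsd17b1 was at 1.44 in growth of gonad-derived oocytes. With a pseudocount of 0.1 it was at 2.41 and Cyp19a1 at 2.01, both past 4-fold.

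At the GRO stage no member was 4-fold apart. In IVP@GRO, where 0.559% of genes were 4-fold apart in either direction, member ratios ran from -0.91 for Cyp11a1 to 0.32 for Hsd17b1. In IVD@GRO, where 0.685% were, gonad-derived oocytes had more Cyp11a1, at 1.27 (0.96 to 1.56), and more Cyp19a1, at 1.07 (0.95 to 1.19), and less Hsd3b1, at -1.07 (-1.33 to -0.81). The study found iPSC- and gonad-derived GROs to be larger than in vivo GROs. The part of oocyte size in these differences, and in the growth ratios above, was not tested. Without in vivo GRO 21 the Hsd3b1 ratio was -0.85. The pooled sum of 10 granulosa genes differed the same way, at 4.28 CPM in gonad and 10.3 CPM in in vivo GROs, and per 100 CPM of that sum Hsd3b1 amounted to 26.8 and 28.7 CPM. Fshr, which had reads in every group, made up 2.58 and 3.23 CPM of these sums, so both per-sum values depend on its place in the list. The part of granulosa cells in the Hsd3b1 difference was not tested. In IVP@FGO none of 7 members was 4-fold apart, where 0.685% of genes were, and the ratios of iPSC to gonad FGOs ran from -0.98 for Star to 0.81 for Fdx1.

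IVD@FGO had the most members apart, with 3 of 7 at least 4-fold lower in gonad than in 6 dpp FGOs, where 0.184% of 13582 genes were. The members were chosen for high levels in 6 dpp FGOs, so nothing is read from the counts in IVD@FGO or IVG@FGO. The ratios were -4.89 (-5.07 to -4.71) for Hsd3b1, -2.24 (-2.45 to -2.02) for Hsd17b1 and -2.19 (-2.41 to -1.98) for Cyp11a1. Without oocytes 10 and 12 they were -3.04, -1.28 and -0.20, so 1 member stayed past 4-fold, where 0.0368% of genes were that much lower. Without oocyte 12 alone Cyp11a1 was at -0.70, Hsd17b1 at -1.77 and Hsd3b1 at -3.88, and without oocyte 10 alone Hsd17b1 was at -1.93. Ratios of group medians over oocytes were -2.65 for Hsd3b1, -1.65 for Hsd17b1 and -0.06 for Cyp11a1. For Cyp17a1, pooled to 0.0554 CPM in gonad and 1.12 CPM in 6 dpp FGOs, the ratio was -1.54 (-1.77 to -1.27), and -0.46 without the 2 oocytes. At such low levels the ratio depends on the pseudocount, and it was -2.97 with a pseudocount of 0.1.

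In IVG@FGO only Hsd3b1 was 4-fold apart, higher in 6 dpp than in in vivo FGOs at 3.79 (3.64 to 3.94), where 0.0884% of genes were. Cyp11a1 followed at 1.75 (1.54 to 1.95), Cyp17a1 at 1.51 (1.22 to 1.75) and Hsd17b1 at 0.63 (0.46 to 0.80). Leaving out 6 dpp FGOs 10 and 12 gave 1.94 for Hsd3b1, under 4-fold, and -0.25, 0.43 and -0.33 for these 3. The in vivo group had libraries of its own that stood apart, oocytes 16 and 19 (below). With those left out as well Hsd3b1 was again past 4-fold at 2.92, where 0.0589% of genes were, with Hsd17b1 at 0.33, Cyp17a1 at 0.41 and Cyp11a1 at -0.17. Without in vivo FGO 16 alone, and all 6 dpp oocytes kept, Hsd3b1 was at 4.71, and without 6 dpp FGO 12 alone it was at 2.78. IVD@FGO and IVG@FGO share the 6 dpp oocytes and are not independent of each other.

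The members were set beside markers of follicle cells in the same libraries. Of 14 granulosa markers 12 were in the table. Nr5a2 and Kitl had reads in every group, pooled to between 16.8 and 27.3 CPM and between 5.36 and 15.7 CPM, so a sum over the other 10 (Amh, Amhr2, Fst, Inhba, Inhbb, Fshr, Gja1, Wt1, Kctd14 and Nr5a1) was used beside the whole list, a choice made after seeing the data. Fshr, kept among the 10, also had reads in every group, pooled to between 1.58 and 3.23 CPM. It made up 2.58 of the pooled sum of 4.28 CPM in gonad GROs, 1.82 of 4.09 CPM in iPSC GROs and 1.58 of 5.70 CPM in iPSC FGOs. The sum of 10 had medians of 3.92, 3.61 and 9.20 CPM in iPSC, gonad and in vivo GROs and 4.07, 5.56, 9.62 and 12.8 CPM in iPSC, gonad, 6 dpp and in vivo FGOs. Its highest value in each group was 9.32, 9.76 and 24.4 CPM in GROs and 20.8, 64.9, 1427 and 313 CPM in FGOs. Over all oocytes the highest were 6 dpp FGO 12 (1427 CPM), in vivo FGO 19 (313), 6 dpp FGO 10 (220), in vivo FGO 16 (215) and gonad FGO 18 (64.9). Gja1, a gap junction protein of granulosa cells, made up most of each, at 1208, 294, 143, 165 and 44.9 CPM, while Amh was at 0 in both 6 dpp oocytes and Wt1 at 0 in oocyte 10.

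Each of these 5 libraries had its own set of members. In 6 dpp FGO 12 all 7 were the highest or next to highest of the group, with Hsd3b1 at 644, Cyp11a1 at 138, Hsd17b1 at 63.5, Cyp17a1 at 19.0 and Star at 11.7 CPM. In oocyte 10 Hsd17b1 (46.7 CPM) was ahead of Cyp11a1 (22.9 CPM), the reverse of oocyte 12. Oocyte 12 exceeded oocyte 10 by 7.62-fold for Cyp17a1, 6.04-fold for Cyp11a1, 3.28-fold for Star, 2.37-fold for Hsd3b1 and 1.36-fold for Hsd17b1. In vivo FGO 16 had Hsd17b1 at 46.9 CPM and Hsd3b1 at 37.0 CPM, the highest of its group in both, but Cyp11a1 at 2.03 CPM and no Cyp17a1 read. In vivo FGO 19, with more granulosa signal than oocyte 16, had Hsd3b1 at 2.58, Hsd17b1 at 1.76 and no Cyp17a1 read, and its Cyp11a1 at 4.23 CPM was the highest of the group. Gonad FGO 18 had Hsd3b1 at 1.19 and Hsd17b1 at 4.88 CPM. Per 100 CPM of the sum of 10 granulosa genes, Hsd3b1 amounted to 123 CPM in 6 dpp FGO 10, 45.1 in 6 dpp FGO 12, 17.2 in in vivo FGO 16, 1.83 in gonad FGO 18 and 0.826 in in vivo FGO 19. The same measure for Cyp11a1 was 10.4 and 9.67 in 6 dpp FGOs 10 and 12, and 0.945, 1.35 and 0.813 in in vivo FGO 16, in vivo FGO 19 and gonad FGO 18.

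**Figure D3:**
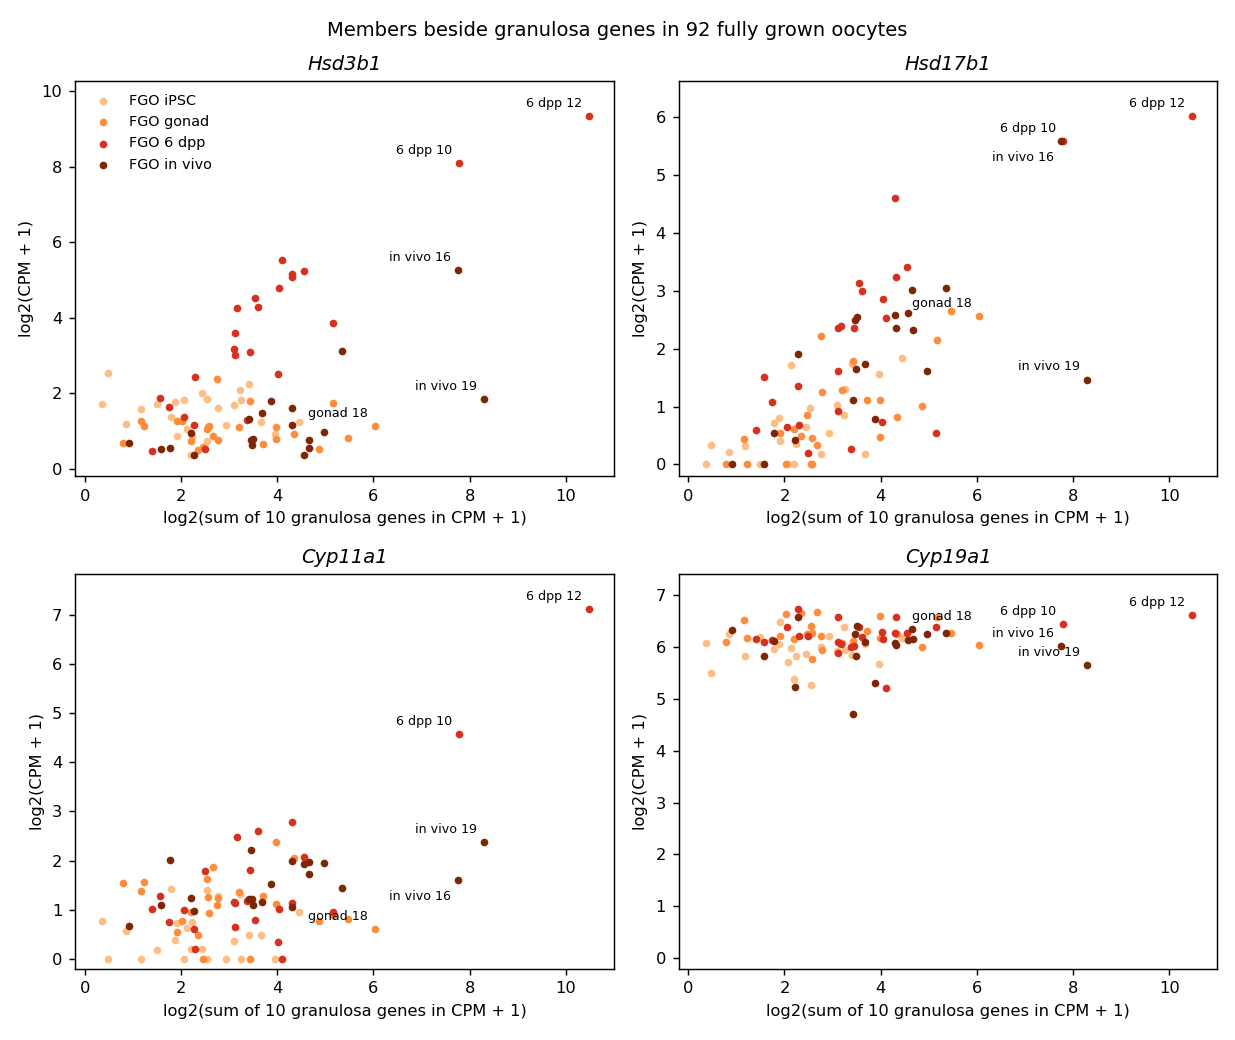
Level of Hsd3b1, Hsd17b1, Cyp11a1 and Cyp19a1 (vertical, log2(CPM + 1)) against the sum of 10 granulosa genes (horizontal, log2(CPM + 1)) in 92 FGOs, 1 point per oocyte, with 5 oocytes named. Most 6 dpp oocytes lie above gonad and in vivo oocytes of like granulosa sum for Hsd3b1, and Cyp19a1 in 6 dpp FGOs 10 and 12 stays inside the range of their group.

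The members differed in how they went with granulosa genes within a group. Correlations here are over the oocytes of 1 group, on log2(CPM + 1), and share library and depth. In the 22 other 6 dpp FGOs Hsd3b1 had a Pearson r of 0.79 and a Spearman rho of 0.82 with the sum of 10 genes, and Hsd17b1 0.51 and 0.53. For Cyp11a1 they were 0.19 and 0.18, for Star -0.10 and -0.12, for Fdx1 0.39 and 0.45, and for Cyp19a1 -0.05 and 0.12. With oocytes 10 and 12 the Pearson values were 0.89 for Hsd3b1, 0.77 for Hsd17b1, 0.81 for Cyp11a1, 0.70 for Star, 0.73 for Fdx1, 0.26 for Cyp19a1 and 0.86 for Cyp17a1. The Spearman values with them were 0.37 for Cyp11a1, 0.14 for Star and 0.53 for Fdx1, so in this group the Pearson values of Cyp11a1 and Star rested on those 2 libraries. With the sum of all 12 granulosa genes Fdx1 went from 0.73 to 0.12 without them. In other groups, with the sum of 10 genes, Cyp11a1 had an r of 0.56 in in vivo FGOs (0.49 without 16 and 19) and 0.52 in iPSC GROs, and Fdx1 had -0.42 in in vivo FGOs without 16 and 19. Cyp19a1 had between -0.12 and 0.44 with that sum in the groups other than 6 dpp FGOs, but with all 12 genes 0.61, 0.58 and 0.52 in iPSC, gonad and in vivo GROs and 0.52 in iPSC FGOs, against -0.24 in gonad and -0.28 in in vivo FGOs. Hsd17b1 also went with the sum in gonad FGOs (r = 0.75, n = 24), in vivo FGOs (0.69, n = 20) and iPSC FGOs (0.60, n = 24). Without gonad FGOs 13 and 18 its r was 0.60, and without in vivo FGOs 16 and 19 it was 0.81. With the sum of all 12 granulosa genes it was 0.73 in gonad, 0.41 in in vivo and 0.41 in iPSC FGOs, and 0.22 in in vivo FGOs without 16 and 19. With that sum Hsd3b1 had 0.63 in the 22 other 6 dpp FGOs and Hsd17b1 0.25. With the sum of 10 genes Hsd3b1 had 0.66 in in vivo FGOs (0.47 without 16 and 19) and 0.58 in in vivo GROs. It had 0.02 in gonad and -0.16 in iPSC FGOs, where its levels were below 5 CPM, and weak values in sparse counts are no finding. With all 12 genes these values were 0.68 (0.49 without 16 and 19), 0.45, -0.05 and 0.24.

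Group levels were set against the same sum. The pooled sum of 10 granulosa genes was 10.5 CPM in the 22 other 6 dpp FGOs, 13.7 CPM in gonad FGOs and 14.3 CPM in in vivo FGOs without 16 and 19. Against it Hsd3b1 amounted to 127 CPM per 100 CPM of the sum in the 6 dpp group, 8.64 in gonad and 9.31 in in vivo FGOs. In iPSC FGOs, whose pooled sum was 5.70 CPM, it amounted to 34.8, and in GROs to 36.9 (iPSC), 26.8 (gonad) and 28.7 (in vivo). Hsd17b1 amounted to 36.9, 9.59 and 20.9 in 6 dpp, gonad and in vivo FGOs and to 13.0 in iPSC FGOs. With all oocytes kept Hsd17b1 amounted to 10.5 in 6 dpp and 12.1 in in vivo FGOs. Without gonad FGOs 13 and 18 the gonad group had a pooled sum of 9.46 CPM, with Hsd3b1 at 12.7 and Hsd17b1 at 9.71. By median over oocytes the sum was 8.70 CPM in the 22 other 6 dpp FGOs, above the 5.56 CPM of gonad FGOs and below the 11.1 CPM of in vivo FGOs without 16 and 19. Relative to these granulosa genes Hsd3b1 was highest in the 6 dpp group, at 64.5 CPM with all 24 of its oocytes, and iPSC FGOs came nearest to it among FGOs. The members were chosen for high levels in 6 dpp FGOs, so nothing is read from this ranking. Whether the transcripts came from the oocytes or from somatic cells of another state was not tested.

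Other follicle cell lists were read in the same way. Theca and stroma markers (12 of 12 in the table) had medians from 2.23 to 5.98 CPM in all groups, with gonad FGO 18 (82.9 CPM), 6 dpp FGO 10 (50.8) and 6 dpp FGO 3 (21.4) highest among FGOs. Oocyte 3 of the 6 dpp group had the third highest Hsd3b1 of the group, 44.8 CPM, and no Cyp11a1 or Cyp17a1 read. Insl3, a hormone of theca cells, was at 6.17 and 1.56 CPM in oocytes 12 and 10. It pooled to 0.171 CPM in 6 dpp FGOs without these 2 and to at most 0.03 CPM in the other groups. Most other genes of the list were low in 6 dpp FGO 12, where the list summed to 14.0 CPM and Col3a1, Pdgfra, Acta2, Ptch1, Tcf21 and Lum were at 0. Cumulus markers (6 of 7) did not exceed 7.55 CPM in any oocyte. Luteal markers (6 of 6) had medians of 16.2, 19.6, 29.0 and 21.7 CPM in iPSC, gonad, 6 dpp and in vivo FGOs, above those of the 10 granulosa genes, and Prlr, the prolactin receptor, carried most of this with pooled levels of 14.0, 18.5, 26.8 and 18.6 CPM. Their sum was highest in 6 dpp FGO 12, at 87.6 CPM, where the receptor of luteinizing hormone, Lhcgr, was at 16.3 CPM. The blood and endothelium list (5 of 6) was carried by Pecam1, at 67.0 to 149 CPM in every group, and its other 4 genes pooled to at most 0.07 CPM. The part of these cells in the levels of the members was not tested.

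Genes whose levels over all oocytes were most like those of a member are named by Pearson r on log2(CPM + 1) over 14228 genes. For Cyp19a1 they were Dab2 (0.94), Mbd3l2 (0.94) and Ms4a1 (0.93), and leaving out 6 dpp FGOs 10 and 12 kept these 3 at the same rounded values. For Fdx1 they were Rps19bp1 (0.76), Riok2 (0.76) and Atp23 (0.74), again the same 3 without those oocytes (0.77 to 0.79). Hsd3b1 was most like Mt3 (0.81), Mgarp (0.77) and Ddah2 (0.74), the same 3 at 0.69, 0.62 and 0.60 without. Hsd17b1 was most like Nap1l5 (0.81), Ephx2 (0.80) and Gja1 (0.80), and kept them at 0.74 to 0.77. Cyp11a1 and Cyp17a1 were both most like Insl3, Prss35 and Neat1, with r from 0.60 to 0.64 and from 0.80 to 0.84. Prss35 was at 366 CPM in 6 dpp FGO 12. Without the 2 oocytes Cyp11a1 was most like BC147527, Slc18a2 and Sec16b (0.55 to 0.60), and Cyp17a1 most like Insl3, H2-M3 and Hsd17b1 (0.33 to 0.45). For Star the nearest were Rpgrip1 (0.45), Cux1 (0.44) and Tom1l1 (0.44), and without the 2 oocytes Rpgrip1 (0.47), Amigo1 (0.45) and Cux1 (0.45). The values describe likeness over pooled stages and sources, so a gene that differs between GROs and FGOs as Cyp19a1 does ranks high for that alone.

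The rest of the pathway was read from lists chosen with earlier results of these data known. Electron donors of steroidogenic cytochromes and their partners (6 of 6 entered every comparison) were within 4-fold throughout, with medians between -0.27 and 0.09. Cyb5a, which assists Cyp17a1, was the most abundant per length at 264 RPKM over all oocytes, and Cyb5b followed at 28.7 RPKM. Fdxr, the reductase that feeds Fdx1, was low at 1.85 RPKM. Of 13 genes that supply cholesterol to mitochondria 1 was 4-fold apart in any comparison, the sterol carrier Stard4, with 72.4 CPM in iPSC FGOs against 12.6 CPM in iPSC GROs (2.47), a comparison in which 4.74% of all genes were, so 1 of 13 is near the background. It was also at 41.9 CPM in 6 dpp against 10.2 CPM in in vivo FGOs (1.99), just under 4-fold. Vdac1 (46.5 RPKM) and Npc2 (40.5 RPKM) were the most abundant of that list.

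Some relatives of the enzymes were abundant and others all but undetected. Among other 3beta-HSD genes (7 of 9 in the table, 3 entered) none was 4-fold apart. Hsd3b7, which acts on bile acid precursors, was the most abundant at 79.0 RPKM, followed by Nsdhl of cholesterol synthesis at 33.3 RPKM, and Hsd3b6 stayed between 1.35 and 3.61 CPM in all groups. In 6 dpp FGOs Hsd3b6 was at 2.05 CPM and Hsd3b2, Hsd3b3 and Hsd3b4 at 0.02 CPM or less, so among the near copies on chromosome 3 Hsd3b1 alone had the high level there. Among other 17beta-HSD genes (10 of 11 in the table, 6 entered) Hsd17b10, a mitochondrial enzyme, was at least 4-fold lower in FGOs than GROs in vivo (20.2 against 116 CPM, where 1.95% of all genes were) and in iPSC-derived oocytes (-2.01, where 4.74% were in either direction), and at -1.91 in gonad-derived ones. It was also the most abundant of the list per length, at 52.1 RPKM, followed by Hsd17b12 at 42.4 RPKM.

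Of the 18 steroid-modifying enzymes in the table, 10 to 12 entered a comparison and 2 were 4-fold apart in any. They made up 2 of 11 that were higher in growth in vivo (3.07% of all genes), 1 of 11 in growth of gonad-derived oocytes (2.75% in either direction) and 1 of 10 in IVD@GRO (0.685%). Akr1c14, which reduces steroid ketones, had growth ratios of 2.11 in vivo and 2.58 in gonad-derived oocytes. In vivo FGO 16 had 49.8 CPM and gonad FGO 18 had 49.7 CPM of it. Without in vivo FGOs 16 and 19 the ratio in vivo was 1.56, under 4-fold, and in gonad-derived oocytes it was 2.04 without gonad FGO 18 and 1.98 without gonad FGOs 13 and 18. The sulfotransferase Sult2b1 was 4-fold higher in in vivo FGOs than GROs (2.04) and in gonad than in in vivo GROs (2.02). Akr1cl was 10.8 CPM in 6 dpp and 2.38 CPM in gonad FGOs (-1.96), and the ratio was -0.46 without oocytes 10 and 12. Srd5a3 (68.6 RPKM) and Cyp7b1 (3.52 RPKM) were the most abundant of the list. Regulators of steroidogenic genes (13 of 14 in the table, 12 to 13 entered) and gonadotropin or steroid receptors (11 of 11, 7 to 9 entered) had none 4-fold apart among those that entered. Of all genes 4.74% were in growth of iPSC-derived oocytes and 0.559% in IVP@GRO, in either direction. None is therefore near the background for lists this short, as also for the electron donors and the other 3beta-HSD genes. Among regulators Prkar1a (51.6 RPKM) and Foxo1 (22.2 RPKM) were the most abundant. Nr5a1, an activator of steroidogenic genes in somatic cells and also 1 of the 10 granulosa genes, was at 2.00 CPM in 6 dpp FGOs, at 11.4 and 20.8 CPM in oocytes 10 and 12, and at 0.751 CPM without them. Among receptors Pgrmc1 (53.4 RPKM) and the estrogen receptor Esr2 (47.7 RPKM) were the most abundant.

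Medians of lists were close to the median of all genes in most comparisons. For the members, which were chosen for high levels in 6 dpp FGOs, the median ratio was -1.54 in IVD@FGO and 0.63 in IVG@FGO, where all genes had medians of 0.02 and -0.04 and the other 7 lists between -0.23 and 0.11 and between -0.19 and 0.17. Without 6 dpp FGOs 10 and 12 the member medians were -0.20 and 0.19, close to the range of the other lists, which was -0.19 to 0.18 in IVD@FGO and -0.41 to 0.13 in IVG@FGO. In growth in vivo the members had 0.79 and all genes -0.11, while the steroid-modifying enzymes had 0.88.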

How the data were processed

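Single oocytes were sequenced with single-end reads after Smart-seq2. The authors aligned the reads with STAR to GRCm38/mm10 with spike-in sequences, placed multimapping reads at random, and counted uniquely mapped reads over the exons of 1 randomly chosen transcript per gene with QuasR. The deposited values are raw counts per gene, and whether counting used strand is not given in the sources used here. Reads carry no molecular identifiers, so intervals cover counting error only.

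Members were found by Entrez ID, and 21907 of 21950 IDs matched a symbol. The members and all gene lists were chosen with earlier results of these data known. The genes named are the members, the listed genes that were at least 4-fold apart in a comparison, the 2 of each list with the highest pooled RPKM, and the 3 genes most like each member. Fdxr, Akr1cl, Nr5a1 and the near copies of Hsd3b1 are named outside this rule and were chosen after their values were seen. Single genes of the marker lists, among them Lhcgr, Prlr, Pecam1, Amh, Wt1, Nr5a2, Kitl and Fshr, are also named outside it, with their values known. Counts were summed per group, divided by the summed library totals and compared as the log2 ratio of CPM + 0.5, with exact Poisson 95% intervals. On simulated counts the calculation recovered known folds well past 4-fold, in genes more abundant than Star or Cyp17a1 was in any group. It was not tried on sparse counts or on groups with single high libraries. Each group counted as 1 sample, because the labels name no animal or culture behind an oocyte, so the edgeR model the study fitted over oocytes was not used and no p-value is given. No libraries were identical (0 pairs).

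Alternatives were pseudocounts of 0.1 and 2, TMM scaling (edgeR 4.0.16 in R 4.3.3), medians over oocytes, no filter on low values, each oocyte left out, and 6 dpp FGOs 10 and 12 left out. Leaving out in vivo FGOs 16 and 19 or gonad FGOs 13 and 18, and the granulosa sum without Nr5a2 and Kitl, were chosen after seeing the data. Python 3.11.15, numpy 2.4.6, pandas 2.3.3, scipy 1.17.1 and matplotlib 3.10.9 were used.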

Additional observations from a re-analysis of the deposited data

How the results depend on the processing

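The number of members at least 4-fold apart in growth in vivo was 2, but 3 with a pseudocount of 0.1 and 1 with a pseudocount of 2, and ranged from 1 to 2 when each oocyte was left out in turn. The member added by a pseudocount of 0.1 was Cyp11a1, at 2.13. In growth of gonad-derived oocytes the number was 0, but 2 with a pseudocount of 0.1 and 1 with TMM scaling, and 0 to 1 with an oocyte left out. In IVD@FGO it was 3, but 4 with a pseudocount of 0.1, and 1 with a pseudocount of 2, with medians over oocytes and without 6 dpp FGOs 10 and 12, and 1 to 3 with 1 oocyte left out. In IVG@FGO it was 1, but 2 with a pseudocount of 0.1 and 0 without 6 dpp FGOs 10 and 12. The member added by a pseudocount of 0.1 was Cyp17a1 in both, at -2.97 in IVD@FGO and 2.85 in IVG@FGO. It entered only through the 6 dpp group, so nothing is read from these added counts. The share of all genes was not computed at the other pseudocounts. Leaving those 2 oocytes out set the pooled level of 6 dpp FGOs at 1.24 CPM for Star, 1.64 for Cyp11a1, 65.8 for Fdx1, 13.4 for Hsd3b1, 0.266 for Cyp17a1, 3.89 for Hsd17b1 and 73.3 for Cyp19a1. With the sum of all 12 granulosa genes, the Pearson r in 6 dpp FGOs became -0.21 for Star, -0.12 for Cyp11a1, 0.12 for Fdx1, 0.25 for Hsd17b1 and -0.24 for Cyp19a1 without them. Removing the filter moved none of the 8 counts, and no ratio of a called member changed sign in these settings. The cause of these shifts was not tested. No paired analysis was possible because oocyte numbers name single cells and the comparisons carry no test. Depth limits what can be said of Cyp17a1, Hsd17b1 and Cyp11a1 in single oocytes, many of which had 0 reads of them.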
